A study of Mus musculus with 21 samples.

Results

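The laminin chains measured here are 9 genes, taken by name from the deposited expression table after its Ensembl identifiers had been mapped to mouse symbols. They are the α chain genes Lama1, Lama2, Lama3, Lama4 and Lama5, the β chain genes Lamb1 and Lamb2, and the γ chain genes Lamc1 and Lamc3, 9 of 26852 genes in all. The question was how the balance between the chains differed among Nes low mesenchymal cells of unengrafted marrow and of marrow with early or late leukemia, with the HL60 and ML1 cell lines apart.

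The cells came from the bone marrow of NSG mice carrying a Nestin-GFP reporter, in which GFP driven by regulatory sequence of Nes sets the sorting gate. HL60 and ML1, both established human acute myeloid leukemia lines, had been given to unconditioned mice of 8 to 12 weeks. The leukemic cells released a lipid-permeable mCherry that neighbouring cells take up, so that early stroma was sorted as ch+ (labelled neighbours) or ch- (unlabelled), while late stroma was sorted without that marker and ctrl stroma came from unengrafted mice of the same strain. The 21 libraries were 3 of ctrl and 3 of each stage of each line, and the lines were pooled to 6 libraries a stage where stages were compared. NSG mice lack lymphocytes, so the marrow holds no adaptive immune cells of the host. No label pairs a ch+ library with a ch- library by mouse, and none names an animal beyond the replicate number in the title, so the p-values measure the spread between these libraries. The study took ch- cells from the marrow that also held ch+ cells, so libraries of both kinds may share mice, but the tests treat them as independent. The treatment field calls the 3 ML1 late libraries unengrafted, but their titles and time point call them late, and they were kept as late. The extraction text speaks of sorting endothelial cells by CD31, whereas the source field gives Nes low mesenchymal cells.

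Each value is the authors' regularized log2 expression value. The study's methods give about 25000000 reads as typical, while the depth of each library is unknown, since these values cannot be turned back into reads. Summed back to the linear scale, in units of 1000000 normalized counts, a ctrl library held 11.9 to 14.2, an early ch- library 12.3 to 14.7, an early ch+ library 11.2 to 12.6 and a late library 7.27 to 9.02. The late libraries therefore lay below all others in this total. Regularization pulls weak genes toward their mean, so that changes of weak chains are understated. A mean of 3.32 or more, the log2 of 10 normalized counts, admitted 12976 genes to limma, and those whose p-value after Benjamini-Hochberg adjustment fell under 0.1 are called deregulated. All 9 chains passed this filter, while the β chain gene Lamb3 did not.

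The labelled cell type was checked against its markers. Cxcl12, a chemokine of perivascular marrow stroma, had a mean log2 value of 15.19 ± 0.35 (SD, n = 3) in ctrl and 16.17 ± 0.16 (SD, n = 6) in late libraries. Lepr, the leptin receptor of the same cells, stood at 12.60 ± 0.42 in ctrl and 14.57 ± 0.22 in late. The endothelial marker Pecam1, which encodes CD31, was at 5.59 ± 0.36 in ctrl and 4.87 ± 0.44 in late, and the leukocyte gene Ptprc at 2.56 ± 0.06 in ctrl and 2.43 ± 0.06 in late. The ctrl and late libraries thus carried these markers of mesenchymal stroma, with Pecam1 and Ptprc far lower; blood and red cell genes were higher in the early libraries, as given below. Bone and cartilage genes were high too: the summed level of 11 osteoblast genes lay between 20.86 and 21.29 in ctrl, above that of 10 marrow stromal markers (15.57 to 16.19), with Col1a1 giving 59.5% of that sum over all libraries.

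Laminins are secreted trimers of an α, a β and a γ chain that assemble into the sheet-like network of basement membranes. The α chain carries the globular domains that bind integrins and dystroglycan on cells, while the β and γ chains complete the coiled coil and link the trimer to nidogen and to other laminins. In bone marrow, laminins with the Lama4 or the Lama5 product surround sinusoids and arterioles, where perivascular stroma and endothelium both contribute to the matrix that blood cells cross.

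In ctrl cells the chains differed widely in level. On the scale of log2 signal per kb of exon, Lamb2 at 8.38 ± 0.14 (SD, n = 3) and Lamc1 at 8.04 ± 0.20 were the highest, and their libraries overlapped. Lamb1 followed at 6.41 ± 0.11 and Lama4 at 5.95 ± 0.11, with no overlap between them. Lama5 at 4.57 ± 0.51 and Lama2 at 4.43 ± 0.28 overlapped, as did Lama3 at 2.54 ± 0.05 and Lamc3 at 2.54 ± 1.5, and Lama1 was lowest of the 9 at 1.67 ± 0.38, within the range of Lamc3. The leading gene of each class in resting Nes low stroma was thus Lama4 among the α, Lamb2 among the β and Lamc1 among the γ chains. Lamb3 was at -2.13 ± 0.00 on this scale and did not have enough signal for a test.

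In late cells the order was different. Lamc1 led at 9.20 ± 0.31 (log2 signal per kb, SD, n = 6), ahead of Lamb1 at 8.12 ± 0.20 and Lama4 at 7.75 ± 0.32, whose libraries overlapped. Lamb2 stood at 7.43 ± 0.20 and overlapped with Lama4, but lay below every value of Lamb1. Lama2 at 4.19 ± 0.55, Lama1 at 3.69 ± 0.65, Lama5 at 3.52 ± 0.33 and Lama3 at 3.08 ± 0.77 came next, each overlapping with its neighbours in this order, and Lamc3 was last at 1.99 ± 0.74, overlapping with Lama3.

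**Figure D1:**
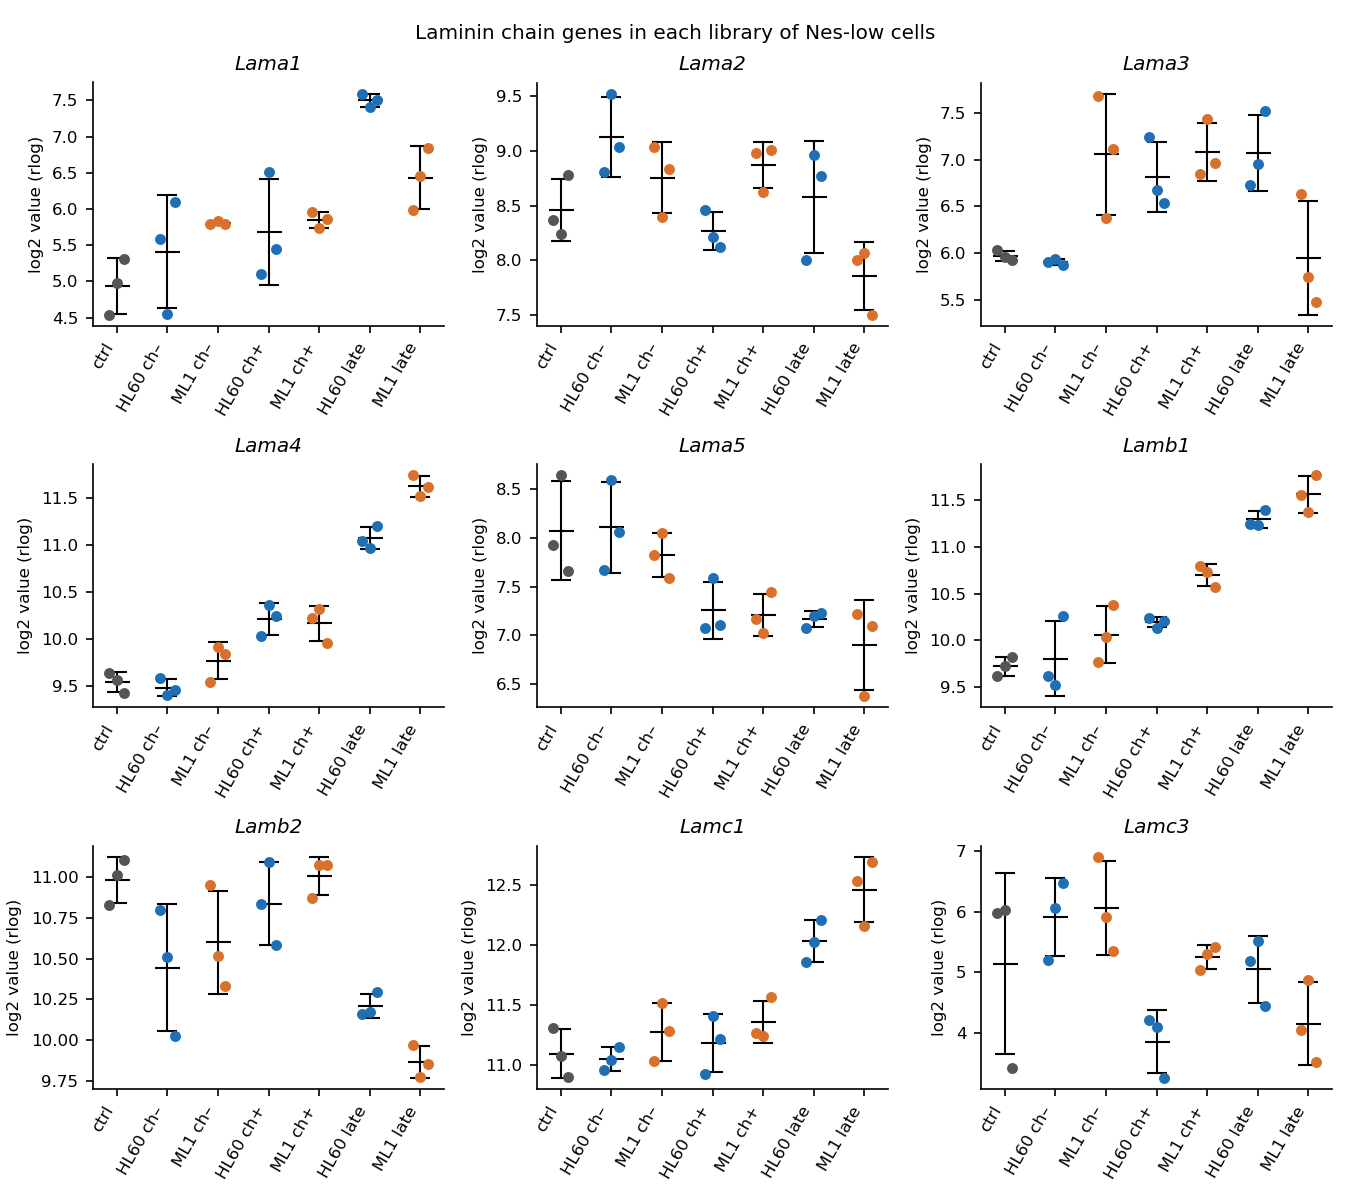
Regularized log2 value of each of the 9 laminin chain genes (vertical axis) in the 21 libraries by group (horizontal axis); each point is a library, the long bar is the mean and the whiskers are 1 SD of 3 libraries. Lama4 rises from 9.42 to 9.64 in ctrl to 10.97 to 11.74 in late, while Lamb2 goes from 10.83 to 11.10 down to 9.78 to 10.30, a decline that loses its call when libraries are rescaled to their totals.

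In late leukemia Lama1, Lama4, Lamb1 and Lamc1 were higher than in ctrl, and Lama5 and Lamb2 were lower. In late against ctrl, 6 of the 9 chains were deregulated, where 21.5% of all tested genes were; 4 chains were higher, against 10.2% of all genes, and 2 were lower, against 11.4%. The median log2 fold change of the 9 chains was 0.54, and that of all tested genes 0.02. In these bulk libraries, fewer cells of a type and less RNA per cell cannot be told apart.

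Lama4, the α chain of vessel and stromal basement membranes, had the lowest adjusted p of the 9. Its log2 values were 9.64, 9.56 and 9.42 in ctrl, 11.04, 10.97 and 11.20 in HL60 late and 11.74, 11.51 and 11.61 in ML1 late. All 6 late libraries lay more than 1 log2 unit above every ctrl library, and those of ML1 lay above those of HL60. The log2 fold change was 1.81 (SE 0.16, limma adjusted p = 5.12e-09), a 3.5-fold higher level.

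Lama5, the α chain found widely in mature epithelial and vascular basement membranes, went the other way. Its values were 7.92, 8.65 and 7.66 in ctrl, 7.08, 7.20 and 7.23 in HL60 late and 7.22, 6.37 and 7.10 in ML1 late. All 6 late libraries were below the lowest ctrl library, with ctrl 374 standing above the rest of its group and ML1 582 below the rest of late. Lama5 fell by 1.04 on the log2 scale (SE 0.25, limma adjusted p = 0.00345). Rescaled to library totals, the change was -0.35 with an adjusted p of 0.237, so the call depended on this scaling.

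Lama1, an α chain best known from embryonic basement membranes, was weak in ctrl at 4.54, 4.97 and 5.31. It stood at 7.59, 7.40 and 7.50 in HL60 late and at 5.99, 6.46 and 6.85 in ML1 late. All late libraries were above ctrl, and all 3 of HL60 were above all 3 of ML1. Its log2 fold change of 2.03 (SE 0.38, adjusted p = 0.000232) was the largest of the 9 in size, from the lowest starting level.

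Lama2, the α chain of muscle and Schwann cell basement membranes, was at 8.37, 8.24 and 8.78 in ctrl and between 7.50 and 8.97 in late. The groups overlapped, and its change of -0.24 (adjusted p = 0.624) turned to 0.45 when libraries were rescaled to their totals. Lama3, the α chain of epithelial anchoring laminins, was at 6.03, 5.95 and 5.92 in ctrl and between 5.47 and 7.53 in late. Its change of 0.54 had an adjusted p of 0.416 as deposited and was 1.23 with an adjusted p of 0.00741 after rescaling.

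The β chain genes moved in opposite directions. Lamb1, the β chain of early and widely spread laminins, was at 9.61, 9.73 and 9.82 in ctrl, at 11.25, 11.24 and 11.40 in HL60 late and at 11.56, 11.37 and 11.77 in ML1 late. Lamb2, the β chain of synaptic, kidney and vascular smooth muscle laminins, was at 10.83, 11.01 and 11.10 in ctrl, at 10.16, 10.17 and 10.30 in HL60 late and at 9.97, 9.78 and 9.86 in ML1 late. For both genes all 6 late libraries lay outside the ctrl range, above it for Lamb1 and below it for Lamb2. Lamb1 rose by 1.71 on the log2 scale (SE 0.18, adjusted p = 7.65e-08). Lamb2 fell by 0.94 (adjusted p = 0.000102), and after rescaling to library totals the change was -0.25 with an adjusted p of 0.174.

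Lamc1, the γ chain of most laminins, was at 11.30, 11.08 and 10.90 in ctrl, at 11.86, 12.02 and 12.21 in HL60 late and at 12.53, 12.16 and 12.69 in ML1 late. Every late library was above every ctrl library, with HL60 and ML1 overlapping. The log2 fold change was 1.15 (SE 0.16, adjusted p = 5.84e-06), or 2.22-fold. Lamc3, a γ chain described in nerve, retina and reproductive tract, was weak and scattered. It stood at 5.98, 6.03 and 3.42 in ctrl and between 3.53 and 5.52 in late. Its change was -0.55 (SE 0.54, adjusted p = 0.575) but -1.41 with an adjusted p of 0.0878 without ctrl 375, the low control library, and 0.15 after rescaling.

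The rise of Lama1, Lama4, Lamb1 and Lamc1 was called under every alternative tried, and leaving out any single library left the log2 fold change of Lama4 between 1.73 and 1.88 and that of Lamb1 between 1.64 and 1.76. Rescaling to library totals moved the median change of all genes from 0.02 to 0.71, a shift of 0.69, and on that scale 60% of all genes were called higher, beside 5 of the 9 chains. Relative to the median of all genes, Lama5 and Lamb2 were thus lower in late cells, while on the scale of the totals their decline was not called. A total on the linear scale gives most weight to the strongest genes, and these were lower late. For ctrl the strongest gene of a library had a log2 value between 21.75 and 22.10, for late between 20.22 and 21.17. The median of the summed osteoblast level was 20.99 for ctrl and 18.40 for late. How far such genes set the totals, and with them the 2 lost calls, was not tested.

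**Figure D2:**
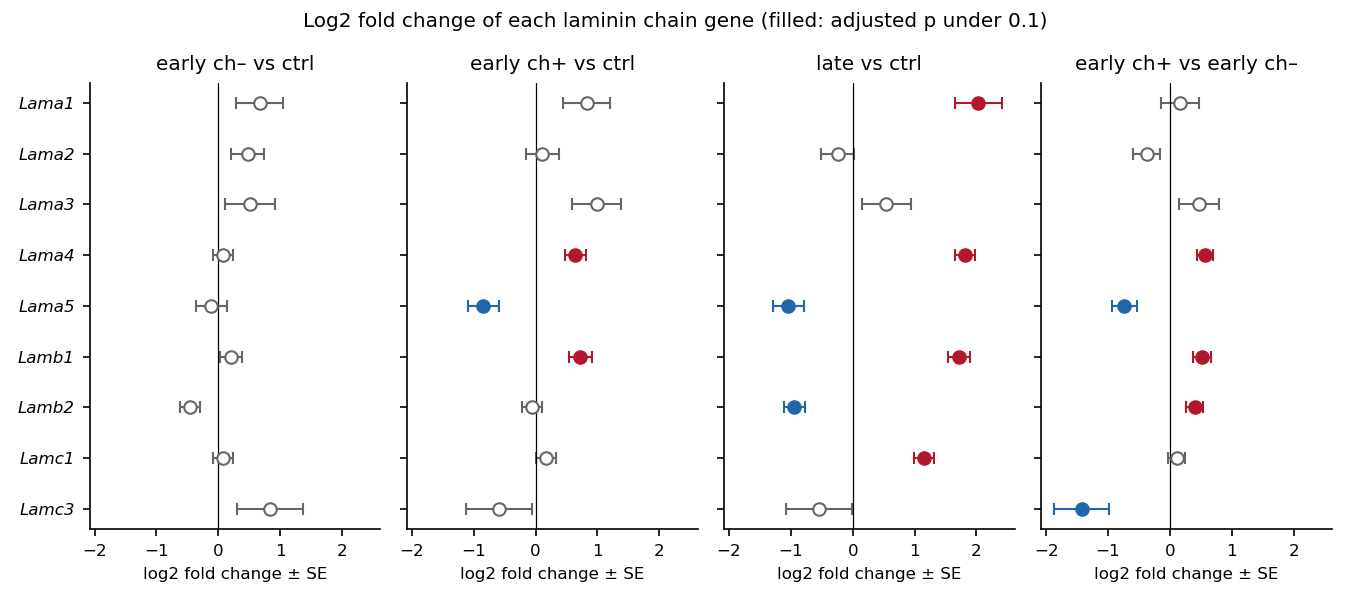
Log2 fold change of each chain gene (vertical axis) with its standard error in 4 comparisons (horizontal axes, limma), with filled points for an adjusted p under 0.1. Lama4 and Lamb1 are filled to the right of 0 in the 3 panels other than early ch- against ctrl, and Lama5 is filled to the left in those panels, at -1.04 in late; rescaling to library totals ends the Lama5 call in late and in ch+ against ch-.

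Markers of other cells moved in the same comparison, where 10.2% of all genes were higher and 11.4% lower. All 12 tested chondrocyte genes and 9 of 11 osteoblast genes were lower in late than in ctrl, and 1 osteoblast gene, Spp1, was higher. The summed chondrocyte level (lowest, median, highest) was 16.97, 17.30 and 17.79 in ctrl and 12.42, 13.69 and 14.97 in late, with Col2a1 as the most abundant gene (38.8% of the sum) and Matn1 as the lowest. The summed osteoblast level was 20.86, 20.99 and 21.29 in ctrl and 16.96, 18.40 and 19.59 in late. Late libraries were below ctrl in both sums without overlap, and after rescaling 12 chondrocyte and 8 osteoblast genes were still called lower.

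Smooth muscle and pericyte genes were lower for 7 of 12 and higher for 1, Notch3, with a summed level of 14.55, 14.94 and 15.42 in ctrl and 14.09, 14.29 and 14.34 in late (Rgs5, 29.7% of the sum, and Cnn1 the lowest gene). After rescaling 3 of those 12 were called lower and 2 higher. Of the 10 marrow stromal markers 8 were higher and 1 was lower, Pdgfra, and the latter turned to higher after rescaling. Their summed level was 15.57, 15.79 and 16.19 in ctrl and 16.85, 16.96 and 17.16 in late, 62.3% of it from Cxcl12. Lepr rose by 1.97 (adjusted p = 1.22e-08) and Pdgfrb by 2.00 (adjusted p = 3.2e-09), while the median change of the 10 was 1.05. Of 9 tested endothelial genes 1 was higher, Eng, and 1 lower, Esam, with 3 higher (Eng, Emcn and Vwf) and 0 lower in limma after rescaling, a scale on which 60% of all genes were higher, and their sum was 9.28 to 9.55 in ctrl and 9.39 to 9.87 in late. The part of these marker groups in the laminin changes was not tested.

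With the lines apart, the same 6 chains were deregulated in both, and HL60 had 1 more. In HL60 late against ctrl 7 of 9 chains were called, where 13.7% of all genes were. In ML1 late against ctrl 6 of 9 were called, where 22% of all genes were. Both comparisons share the 3 ctrl libraries. Lama4 rose by 1.53 in HL60 (adjusted p = 1.39e-08) and by 2.08 in ML1 (adjusted p = 4.05e-12). Lamb1 rose by 1.58 in HL60 and by 1.85 in ML1, and Lamc1 by 0.94 and 1.37. Lama1 rose by 2.56 in HL60 (SE 0.41) and by 1.49 in ML1 (SE 0.41). Lamb2 fell by 0.77 in HL60 and by 1.11 in ML1, and Lama5 by 0.91 in HL60 and by 1.18 in ML1, and rescaling to library totals ended all 4 of these calls. Of the 9 endothelial genes 4 were lower in ML1 late than in ctrl, Kdr (-1.15), Cdh5 (-1.06), Pecam1 (-1.02) and Tek (-0.93), with a median of -0.93, and 1 was higher in HL60 late, Eng (0.66), with a median of -0.13. After rescaling those 4 were at -0.33, -0.25, -0.21 and -0.12 in the same order and not called, and 3 were higher in ML1 (Eng, Emcn and Vwf) and 2 in HL60 (Eng and Emcn), where 62.9% and 39.6% of all genes were higher. Between the lines in late limma called 0 of the 9 endothelial genes, with 3 at an unadjusted p under 0.05, where 4.09% of all genes were called. Their part in the chain changes was not tested.

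The seventh chain in HL60 was Lama3, at 6.74, 6.95 and 7.53 against 6.03, 5.95 and 5.92 in ctrl, a change of 1.11 (SE 0.36, adjusted p = 0.0475). In ML1 late, Lama3 was at 6.63, 5.74 and 5.47, on both sides of ctrl, and after rescaling it was called higher (0.79, adjusted p = 0.0611), as was Lama2 in HL60 late (0.69, 0.0332). Single libraries decided some of the HL60 calls. Lama3 had an adjusted p of 0.101 without ctrl 374, 0.108 without ctrl 375 and 0.241 without HL60 late 399. Lama5 had 0.273 without ctrl 374, with a change of -0.62, and 0.131 and 0.106 without HL60 late 397 and 398. In ML1, Lama2 (-0.60, adjusted p = 0.105) was called lower without ctrl 374 (-0.71, 0.0895) and with the stricter filter (0.0906), and turned to 0.21 after rescaling, and Lamc3 was called lower without ctrl 375 (-1.86, 0.0109).

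Tested directly, ML1 against HL60 in late cells gave 1 called chain of 9, beside 4.09% of all genes. It was Lama4, higher in ML1 by 0.55 (SE 0.15, adjusted p = 0.0329), with 3 of 3 ML1 libraries above 3 of 3 HL60 libraries. This call was lost without HL60 late 397 (adjusted p = 0.122) or 398 (0.17) and without ML1 late 581 (0.185) or 583 (0.109), and also with all libraries when no mean-variance trend was used (0.154). Lama1, Lama3 and Lamb2 were lower in all ML1 late libraries than in all HL60 late libraries, with changes of -1.07 (adjusted p = 0.219), -1.13 (adjusted p = 0.102) and -0.34 (adjusted p = 0.517) that missed the threshold. How many of all genes separate the lines in this way was not counted, so the separation is given as a description only. Lama3 was called without ML1 late 581 (-1.47, adjusted p = 0.0346), Lama2 without HL60 late 397 (-1.01, 0.0271) and Lamc1 without ML1 late 582 (0.58, 0.0678). With all libraries kept, Lama1 (adjusted p = 0.0238) and Lama3 (0.0637) were called with the compared groups alone, Lama3 also with the stricter filter (0.0758) and with no trend (0.0999), and Lamc1 after rescaling (0.0248). Which chains were called between the lines thus changed with the setting. In the same comparison 10 of 11 osteoblast genes (median -2.01) and 8 of 12 chondrocyte genes (median -2.04) were lower in ML1, and their part in the chain differences was not tested.

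At the early stage, Lama4, Lamb1 and Lama5 were called in ch+ cells in the direction of their late change, Lama4 and Lamb1 with smaller changes. How many of all genes called late were also called in ch+ cells was not counted. In early ch+ against ctrl 3 of 9 chains were deregulated, where 6.17% of all genes were. Of these, 2 were higher, Lama4 and Lamb1, against 3.41% of all genes, and 1 was lower, Lama5, against 2.75%. The median change of the 9 chains was 0.18 and that of all genes 0.01. This comparison shares its 3 ctrl libraries with late against ctrl.

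Lama4 stood at 10.03, 10.36 and 10.24 in HL60 ch+ and at 10.22, 10.31 and 9.96 in ML1 ch+, and Lamb1 at 10.23, 10.14 and 10.21 in HL60 ch+ and at 10.80, 10.73 and 10.57 in ML1 ch+. All 6 libraries lay above ctrl and below late for both genes. The log2 fold change was 0.65 for Lama4 (SE 0.16, adjusted p = 0.0175) and 0.73 for Lamb1 (SE 0.18, adjusted p = 0.0158). Lama5 was at 7.08, 7.59 and 7.10 in HL60 ch+ and at 7.16, 7.02 and 7.44 in ML1 ch+, below ctrl in all 6. It fell by 0.85 (SE 0.25, adjusted p = 0.0541), at -0.77 after rescaling, and without ctrl 374 its change was -0.56 with an adjusted p of 0.341.

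The other late changes were not called in ch+ cells. Lamb2 ranged from 10.58 to 11.09 and Lamc1 from 10.92 to 11.56, both overlapping with ctrl, and the Lamb2 change of -0.06 turned to 0.02 after rescaling. Lama1 ranged from 5.10 to 6.51, with a change of 0.83 and an adjusted p of 0.262. Lama3 ranged from 6.54 to 7.44, above ctrl in 6 of 6 libraries, with a change of 0.99 and an adjusted p of 0.19, and it was called with 7 groups (0.0629) and with the compared groups alone (0.0984). By line, 1 of 9 chains was called in HL60 ch+ against ctrl, beside 5.33% of all genes, and 4 of 9 in ML1 ch+ against ctrl, beside 6.69%.

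Lama4 was the chain called in both, higher by 0.67 in HL60 (adjusted p = 0.00721) and by 0.62 in ML1 (adjusted p = 0.0102). In ML1, Lamb1 was higher by 0.98 (adjusted p = 0.000485), Lama3 by 1.12 (adjusted p = 0.0769) and Lama5 lower, at -0.87 (adjusted p = 0.0977). In HL60 ch+, Lama5 (-1.03, adjusted p = 0.0854) and Lamc3 (-2.15, adjusted p = 0.0143) were called as well without ctrl 375, and Lamb1 after rescaling (0.57, 0.072). In ML1 ch+, the Lama3 call was lost without any of ctrl 373, 374 and 375 or ML1 ch+ 539 or 541, with changes of 0.94 to 1.18, and with all libraries without a filter (0.13) or with the compared groups alone (0.194). The Lama5 call was lost without ctrl 373 or 374 or any of the 3 ML1 ch+ libraries, down to -0.59 without ctrl 374, and with all libraries under quantile normalization (0.111), rescaling (0.138), no trend (0.125), no filter (0.184) and the compared groups alone (0.215). ML1 against HL60 within ch+ cells gave 0 of 9 chains in limma, beside 0.0154% of all genes, with 3 chains at an unadjusted p under 0.05.

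Early ch- cells, the unlabelled cells of the same marrow stage, had no called chain. In early ch- against ctrl limma called 0 of 9, where 1.92% of all genes were called, and 1 chain, Lamb2, had an unadjusted p under 0.05. Lamb2 was at 10.80, 10.51 and 10.03 in HL60 ch- and at 10.95, 10.52 and 10.34 in ML1 ch-, with a change of -0.46 (SE 0.17). Its ch- libraries overlapped with ctrl. Lama4 ranged from 9.40 to 9.91, Lamb1 from 9.52 to 10.38, Lamc1 from 10.96 to 11.51 and Lama5 from 7.59 to 8.60, each overlapping with ctrl.

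By line, limma called 0 of 9 chains in HL60 ch- against ctrl (1.57% of all genes, and 2 chains at an unadjusted p under 0.05) and 0 of 9 in ML1 ch- against ctrl (2.34% of all genes, 3 chains). ML1 against HL60 within ch- cells gave 0 of 9 as well, beside 0.0539% of all genes, with 1 chain, Lama3, at an unadjusted p under 0.05. Lama3 was at 5.90, 5.93 and 5.88 in HL60 ch- and at 7.68, 6.38 and 7.12 in ML1 ch-. The 3 ML1 libraries lay above those of HL60 and of ctrl, and the difference of 1.16 between the lines had an adjusted p of 0.426. Without HL60 ch- 527, Lamb2 was called lower in HL60 ch- than in ctrl (-0.71, adjusted p = 0.0725), and without ML1 ch- 544, Lama3 was called higher in ML1 ch- (1.43, adjusted p = 0.0799).

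Blood and red cell genes separated both early groups from ctrl and late. In early ch+ against ctrl 10 of 10 tested blood genes and 9 of 9 red cell genes were higher, and in early ch- against ctrl 9 and 8. The summed red cell level (lowest, median, highest) was 8.43, 8.84 and 9.49 in ctrl, 12.33, 12.93 and 13.34 in ch-, 12.11, 13.07 and 13.66 in ch+ and 6.73, 6.81 and 7.23 in late, with Hbb-bs giving 43.9%. The summed blood level was 8.13, 8.94 and 9.34 in ctrl, 10.72, 10.98 and 11.74 in ch-, 10.29, 11.18 and 11.57 in ch+ and 6.96, 7.72 and 8.10 in late, with Lyz2 giving 28.3% and Cd79a as the lowest gene. The ranges of ch+ and ch- overlapped, and limma called 0 genes of either list between them, with 0 at an unadjusted p under 0.05. The methods removed blood cells with magnetic beads and stained for mouse CD45 and Ter119 before sorting.

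Other lists differed between early ch+ and ctrl as well. Of 10 marrow stromal markers 7 were higher, with a median of 0.80, beside 0.65 for Lama4, and 10 of 12 smooth muscle and pericyte genes and 10 of 12 chondrocyte genes were lower. After rescaling these counts were 7, 9 and 10. The median change was 2.10 for skeletal muscle, 0.85 for adipocyte and -1.34 for Schwann cell genes. The part of these and of the blood and red cell genes in the early results was not tested.

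The comparison of labelled with unlabelled neighbours needs no ctrl library. In early ch+ against early ch- 5 of 9 chains were deregulated, where 6.26% of all genes were. Of these, 3 were higher, Lama4, Lamb1 and Lamb2, against 3.58% of all genes, and 2 were lower, Lama5 and Lamc3, against 2.68%. The median change was 0.16 for the 9 chains and -0.02 for all genes.

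The strongest call was that of Lama4. Its ch- libraries were at 9.58, 9.40 and 9.46 for HL60 and at 9.54, 9.91 and 9.84 for ML1, and all 6 lay below all 6 ch+ libraries. The change was 0.56 (SE 0.13, adjusted p = 0.00769), and it was called without any single library, at 0.52 to 0.62. Lama5 was at 7.67, 8.60 and 8.06 in HL60 ch- and at 7.83, 8.05 and 7.59 in ML1 ch-, above the 6 ch+ libraries by a narrow margin at its lowest. It fell by 0.74 (SE 0.21, adjusted p = 0.0313). The Lama5 call was lost without HL60 ch- 528 (-0.61, adjusted p = 0.114) and after rescaling (-0.58, adjusted p = 0.109).

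The other 3 calls had overlapping groups and rested on single libraries. Lamb1 was at 9.62, 9.52 and 10.26 in HL60 ch- and at 9.77, 10.03 and 10.38 in ML1 ch-, and the highest of each line, 529 and 546, fell within the range of ch+. Its change of 0.52 (SE 0.15, adjusted p = 0.0353) lost its call without HL60 ch- 527 (0.45, adjusted p = 0.102), HL60 ch- 528 (0.44, 0.118) or ML1 ch+ 538 (0.45, 0.106), and with all libraries without a filter (0.109) or a trend (0.11). Lamb2 was higher by 0.40 (adjusted p = 0.0988), and this call was lost without HL60 ch- 528 or 529, ML1 ch- 544 or 546, HL60 ch+ 523 or 524, or any of the 3 ML1 ch+ libraries, with an adjusted p of up to 0.252, and with all libraries under quantile normalization (0.133), no filter (0.203) and no trend (0.213).

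Lamc3 was at 5.20, 6.06 and 6.46 in HL60 ch- and at 6.90, 5.91 and 5.36 in ML1 ch-. In ch+ it was at 4.22, 4.09 and 3.26 for HL60 and at 5.03, 5.30 and 5.42 for ML1. The low values were those of HL60 ch+, while the ML1 groups overlapped. Lamc3 fell by 1.43 (SE 0.44, adjusted p = 0.0588). Its call was lost without HL60 ch- 528 or 529, ML1 ch- 543 or any of the 3 HL60 ch+ libraries, with changes of -1.41 to -1.17, and with all libraries without a filter (0.189).

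By line, HL60 ch+ against HL60 ch- gave 3 of 9 chains, beside 3.92% of all genes, and ML1 ch+ against ML1 ch- gave 1 of 9, beside 4.25%. In HL60 these were Lama4 (0.73, adjusted p = 0.0029), Lamc3 (-2.05, SE 0.56, adjusted p = 0.0388) and Lama2 (-0.86, SE 0.25, adjusted p = 0.0619), each with 3 of 3 libraries beyond the other group. Lama2 was at 8.81, 9.53 and 9.04 in HL60 ch- and at 8.46, 8.22 and 8.12 in HL60 ch+. Its call was lost without HL60 ch- 528 (-0.66, adjusted p = 0.352) or 529 (-0.90, 0.105) and without HL60 ch+ 524 (-0.84, 0.17) or 525 (-0.79, 0.189), and with all libraries after rescaling (-0.74, 0.112), without a filter (0.179) and without a trend (0.15). That of Lamc3 was lost without HL60 ch- 528 (adjusted p = 0.145) or 529 (0.169) or HL60 ch+ 525 (0.178), and with all libraries without a filter (0.169). In turn, Lama5 was called without HL60 ch- 527 (-1.07, adjusted p = 0.091) and Lamb1 without HL60 ch- 529 (0.62, adjusted p = 0.0439).

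In ML1 the called chain was Lamb1, higher by 0.64 (SE 0.17, adjusted p = 0.035) in 3 of 3 libraries. Without ML1 ch- 543 or 544 its adjusted p was 0.238 or 0.102, and without ML1 ch+ 538 or 539 it was 0.115 or 0.113. With all libraries it was 0.12 without a filter and 0.156 without a trend. After rescaling, Lama4 (0.58, adjusted p = 0.0499) and Lamb2 (0.59, 0.0585) were called higher in ML1 as well. The difference between the lines in the change from ch- to ch+ was tested for each chain, and limma called 0 of 9, the lowest adjusted p being 0.66 for Lama2 (0.98, SE 0.36). It was thus not shown that HL60 and ML1 differed in how labelled cells departed from unlabelled ones.

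Markers of other cells also differed between ch+ and ch-. Lower in ch+ were 10 of 12 smooth muscle and pericyte genes, 10 of 12 chondrocyte genes and 6 of 9 Schwann cell genes. The summed smooth muscle level was 14.13, 14.56 and 14.91 in ch- and 13.35, 13.56 and 13.75 in ch+, and the summed chondrocyte level was 16.43, 16.81 and 17.13 in ch- and 15.46, 15.80 and 16.18 in ch+. Both sums were lower in all 6 ch+ libraries. The summed Schwann cell level went the other way, with a mean of 11.15 in ch- and 11.53 in ch+. Its ranges overlapped, at 10.91 to 11.54 and 11.19 to 11.89. Of the 10 marrow stromal markers 1, Cxcl12, was called, at 0.47 with an adjusted p of 0.0871, and it was not called after quantile normalization (0.09). The part of these cells in the chain changes was not tested.

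From early ch+ to late, 5 of 9 chains changed, where 19.7% of all genes did. Lama4 rose by a further 1.16 (SE 0.13, adjusted p = 1.19e-07), Lama1 by 1.2 (adjusted p = 0.00631), Lamb1 by 0.99 (adjusted p = 9.18e-06) and Lamc1 by 0.98 (adjusted p = 2.39e-06). Lamb2 fell by 0.88 (adjusted p = 1.32e-05), and after rescaling its change was -0.27 (adjusted p = 0.0732). The late libraries did not overlap with those of ch+ for these chains, except for Lama1. Lama5, already lower in ch+, changed by -0.20 (adjusted p = 0.617), and after rescaling it turned to 0.42 with an adjusted p of 0.0842. Lama4 and Lamb1 thus moved in both steps, while the changes of Lamc1 and Lamb2 were called late and not in ch+ against ctrl. In late against ch+ 10 of 10 blood, 9 of 9 red cell and 9 of 11 osteoblast genes were lower and 8 of 12 smooth muscle and pericyte genes higher, and the median of skeletal muscle genes was -2.44. After rescaling the 4 counts were 10, 9, 8 and 11, on a scale where 65% of all genes were higher and 4.53% lower. Other lists moved as well. After quantile normalization 5 of 9 Schwann cell genes were higher and 2 lower. Of 10 marrow stromal markers 5 were higher and 2 lower, and of 9 endothelial genes 1 was higher and 3 lower. After rescaling the counts in this order were 7 and 0, 9 and 1, and 4 and 0. The part of these genes in the chain changes was not tested.

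The balance within each class was measured as the share of each gene in the summed signal per kb of its class, which rescaling of a library leaves as it is. Within the α chains, Lama4 made up 52.6% ± 3.71 (SD, n = 3) in ctrl. Its share in single ctrl libraries was 56.9%, 50% and 51.1%. It was 53.1%, 39.1% and 46.1% in HL60 ch- and 44.5%, 58.0% and 54.5% in ML1 ch-. The ch- libraries scattered around and below ctrl, with means of 46.1% and 52.4%.

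In labelled cells the Lama4 share was higher. It was 62.9%, 66.9% and 70.3% in HL60 ch+ and 61.9%, 64.8% and 56.0% in ML1 ch+, and all 6 but ML1 541 exceeded every ctrl library and every ch- library. In late cells it reached 75.3%, 69.6% and 72.0% with HL60 and 86.4%, 86.5% and 86.9% with ML1. The late libraries of ML1 formed a tight group above those of HL60, with an SD of 0.247 against 2.86. No p is given for shares.

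The other α chains changed in share as follows. The mean Lama5 share was 20.8% in ctrl, 19.1% and 14.5% in HL60 and ML1 ch-, 9.16% and 8.43% in ch+, and 5.12% and 3.54% in late. That of Lama2 was 18.8% in ctrl, 26.7% and 19.4% in ch-, 12.9% and 18.6% in ch+, and 9.82% and 4.8% in late. Both shares declined to late, Lama5 already in ch+ of both lines and Lama2 in ch+ of HL60. Since the shares of a class add up to the whole, the share of a gene can fall while its own level does not. The level of Lama2 was not called in late against ctrl (-0.24, limma adjusted p = 0.624). The Lama1 share was 2.78% in ctrl, 7.61% in HL60 late and 3.08% in ML1 late, so that Lama1 took more of the α signal with HL60 than with ML1. The Lama3 share was 4.97% in ctrl, 9.56% in ML1 ch-, 5.15% in HL60 late and 1.99% in ML1 late.

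Within the β chains the leading gene changed. The Lamb1 share was 20.9%, 20.1% and 20.2% in ctrl, 56.6%, 56.2% and 56.8% in HL60 late and 64.8%, 64.9% and 69.7% in ML1 late. Between them lay ch-, at 21.3%, 23.6% and 41.8% for HL60 and 21.3%, 30.5% and 38.7% for ML1, and ch+, at 28.7%, 24.0% and 32.2% for HL60 and 36.7%, 32.6% and 30.2% for ML1. Every leukemic library was above ctrl, ch- and ch+ overlapped, and late stood apart. Lamb2 supplied the rest but for at most 0.0943% from Lamb3 in any library.

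Per kb of exon, Lamb1 was above Lamb2 in 6 of 6 late libraries and in 0 of 3 ctrl, 0 of 6 ch- and 0 of 6 ch+ libraries. The log2 difference between them lay between -1.99 and -1.92 in ctrl, between -1.89 and -0.48 in ch-, between -1.66 and -0.78 in ch+ and between 0.36 and 1.21 in late. With the longest transcript in place of all exons the difference was -1.33 to -1.26 in ctrl and 1.03 to 1.87 in late, and 2 of 6 ch- libraries then had Lamb1 above Lamb2. The order of the genes within a library thus depends on the length used, while the move from ctrl to late does not.

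Within the γ chains Lamc1 held 97.1% in ctrl, 95.9% and 95.8% in HL60 and ML1 ch-, 98.9% and 97.8% in ch+ and 98.7% and 99.4% in late. The share of Lamc3 in single libraries was between 0.236% (ML1 late 583) and 7.18% (ML1 ch- 543). The γ signal was thus almost all from Lamc1.

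**Figure D3:**
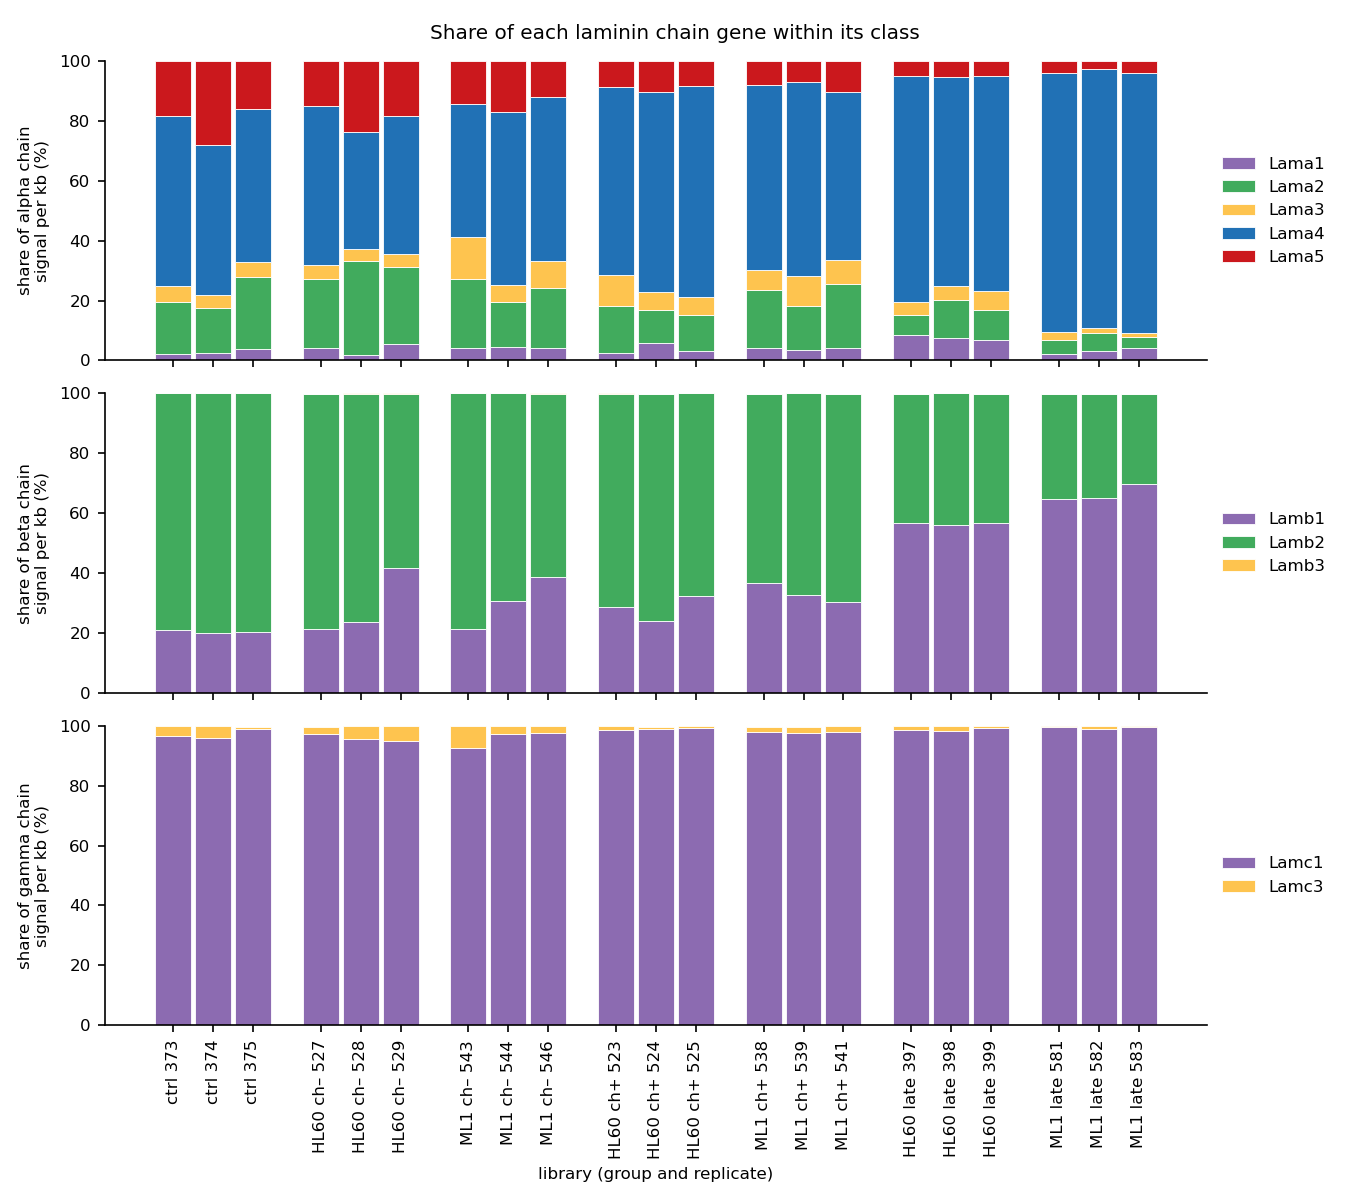
Share of each gene in the signal per kb of its class (vertical axes, percent, stacked) for the α, β and γ chains in each of the 21 libraries (horizontal axis). The Lama4 part widens from 50% to 56.9% in ctrl to 86.4% to 86.9% in ML1 late, and the Lamb1 part from 20.1% to 20.9% in ctrl to 56.2% to 69.7% in late, while Lamc1 fills nearly all of the γ class throughout.

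Summed by class, the α and γ signals were higher in late than in ctrl, while the result for the β signal depended on the gene length and on the scaling. The log2 sum per kb of the α chains was 6.87 ± 0.09 (SD, n = 3) in ctrl, 7.06 ± 0.10 (n = 6) in ch-, 7.24 ± 0.11 in ch+ and 8.09 ± 0.19 in late. That of the γ chains was 8.09 ± 0.22, 8.18 ± 0.19, 8.24 ± 0.22 and 9.21 ± 0.31 in the same order. That of the β chains was 8.71 ± 0.13, 8.43 ± 0.17, 8.85 ± 0.19 and 8.83 ± 0.11. The late β sum overlapped with ctrl on this scale. With the longest transcript in place of all exons it was 8.84 to 9.10 in ctrl and 9.26 to 9.59 in late, without overlap, and per kb of exon after rescaling it was 8.52 to 8.58 in ctrl and 9.12 to 9.64 in late, again without overlap.

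The ratio of classes does not depend on scaling. The log2 difference of the α and γ sums was -1.21 ± 0.21 in ctrl and -1.12 ± 0.17 in late and overlapped between them. That of the β and γ sums was 0.62 ± 0.35 in ctrl (0.26 to 0.96), 0.26 ± 0.28 in ch-, 0.61 ± 0.20 in ch+ and -0.38 ± 0.23 in late (-0.67 to -0.07). Every ctrl library had more β than γ signal per kb of exon, and every late library had less. With the longest transcript the difference was 0.42 to 1.11 in ctrl and -0.18 to 0.34 in late, so that late was still below ctrl but lay on both sides of 0. Per kb of exon the difference was -0.19 ± 0.11 in HL60 late and -0.57 ± 0.12 in ML1 late, without overlap. RNA sums say nothing of how many trimers were assembled.

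Across the 21 libraries Lama4, Lamb1 and Lamc1 varied together, as a description over groups that differ in stage. Pearson's r was 0.937 between Lama4 and Lamb1, 0.929 between Lama4 and Lamc1 and 0.892 between Lamb1 and Lamc1. Lama1, which also rose late, had weaker values of 0.714 with Lama4, 0.781 with Lamb1 and 0.691 with Lamc1. It was -0.673 between Lamb1 and Lamb2 and -0.731 between Lama4 and Lama5. Of all tested genes outside the family, those most like Lama4 were Fbn1 and Col4a1 (r = 0.971 for both) and Nid1 (0.967), which encode the microfibril protein fibrillin, a collagen IV chain and the laminin-binding protein nidogen.

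Lamb1 was closest to Fbn1 (0.962), Lepr (0.947) and Col4a1 (0.945), and Lamc1 to the collagen and laminin receptor gene Itga1 (0.937), Pdgfrb (0.931) and Steap4 (0.93). Lamb2 was closest to Hr (0.908), Ly6c1 (0.89) and Ackr3 (0.889), and Lama5 to Rcan2 (0.895), Ppp1r12b (0.87) and Akap6 (0.869). Lama1 was closest to the transcription factor genes Runx1 (0.856) and Prrx1 (0.85). The weaker likenesses included those of Lamc3 to Rnf144a (0.778) and Mepe (0.762), of Lama2 to Pcnx (0.78), Sphkap (0.766) and Hpgd (0.738), and of Lama3 to Psrc1 (0.742), Apoe (0.731) and Dkk3 (0.702).

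Partners of laminin in the basement membrane changed in both directions. Of 23 such genes 19 were tested, and 8 were higher and 5 lower in late than in ctrl, with a median change of 0.29 where that of all genes was 0.02 and 10.2% of all genes were higher and 11.4% lower. After rescaling 10 were higher and 3 lower, with a median of 0.99, where 60% of all genes were higher and 3.97% lower, with a median of 0.71. Those with the largest changes were Sparc (-2.03, adjusted p = 5.17e-06), a collagen-binding matricellular protein that gave 91.3% of the list's signal, Smoc1 (1.89, adjusted p = 3.81e-05), Col15a1 (-1.87, adjusted p = 7.31e-07) and Tinagl1 (-1.77, adjusted p = 0.00609). Sparc was not called after quantile normalization, at -0.19. Nid1, which bridges laminin to collagen IV, rose by 1.75 (adjusted p = 5.12e-09) and Col4a1 by 1.62 (adjusted p = 1.12e-08).

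In ch+ against ch- 3 of the 19 were higher and 3 lower, with a median of -0.25. Of all genes 3.58% were higher and 2.68% lower in this comparison, with a median of -0.02. Col4a2 rose by 0.92 (adjusted p = 1.04e-05), Col4a1 by 0.85 (adjusted p = 2.6e-05) and Fbln1, a fibulin of the same matrix, by 0.85 (adjusted p = 0.0214), while Tinagl1 fell by 1.97 (adjusted p = 0.000785) and Agrn and Col18a1, also lower, were not called after rescaling. The collagen IV pair thus rose beside Lama4 and Lamb1 in labelled cells. After rescaling, 3 were higher and 1 lower.

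Of 16 laminin receptor genes, all tested, 4 were higher and 4 lower in late, with a median of -0.33. Of all genes 10.2% were higher and 11.4% lower. After rescaling the median of the receptors turned to 0.37, with 8 higher and 2 lower. This was below the median of 0.71 and the 60% higher of all genes on that scale. Itga6, the integrin α chain of the main laminin receptors, was at 8.01, 8.52 and 8.89 in ctrl (lowest, median, highest) and at 3.84, 5.27 and 6.31 in late. It was at 6.72, 7.17 and 8.06 in ch- and at 9.26, 9.65 and 10.10 in ch+. Labelled cells were thus highest and late cells lowest, with no overlap among ch-, ch+ and late.

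Itga6 fell by 3.32 in late against ctrl (SE 0.43, adjusted p = 1.49e-06) and rose by 2.37 in ch+ against ch- (SE 0.35, adjusted p = 2.66e-05). Its partner for hemidesmosomes, Itgb4, fell by 1.77 late (adjusted p = 0.00868). Itga1 rose by 1.84 late (adjusted p = 8.23e-09) and Itga9 by 1.81 (adjusted p = 2.67e-05). In ch+ against ch- 3 receptors were higher and 2 lower, with a median of -0.08 that turned to 0.07 after rescaling, where 5 were higher and 2 lower and the median of all genes was 0.13. The latter were Bcam (-2.20, adjusted p = 2.66e-05), the Lutheran receptor for the Lama5 product, and Mcam (-1.66, adjusted p = 0.000358), a receptor for the Lama4 product that is also on the smooth muscle and pericyte list. Sdc2, a syndecan, rose by 1.22 (adjusted p = 2.7e-08).

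Of the netrins, relatives of laminin short arms, 4 were tested. Late against ctrl gave 1 higher, Ntng2 (1.19, adjusted p = 0.00395), and 2 lower, Ntn1 (-2.43, adjusted p = 9.98e-06) and Ntn4 (-0.66, adjusted p = 0.074), with a median of -0.69 that was 0.00 after rescaling, where Ntn4 stood at 0.03. In ch+ against ch- both Ntn1 (2.20, adjusted p = 5.57e-06) and Ntn4 (1.14, adjusted p = 0.000439) were higher, with a median of 0.52. Of all genes 3.58% were higher there, while in late 10.2% were higher and 11.4% lower. Ntn1 lay between 9.05 and 9.94 in ch+, between 6.76 and 8.01 in ch- and between 5.37 and 7.49 in late. Labelled cells thus stood above ch- and late, as they did for Itga6. Against ctrl after rescaling, limma called 1 netrin higher in ch+, Ntn4 (0.79, adjusted p = 0.0465), and not Ntn1. Itga6 was called higher in ch+ than in ctrl after rescaling (1.30, limma adjusted p = 0.0497) but not as deposited.

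Inside the cell, the dystrophin complex joins dystroglycan to actin. Of 13 tested genes of this complex 2 were higher and 3 lower in late, beside 10.2% and 11.4% of all genes, with a median of -0.16. After rescaling 6 were higher and 1 lower and the median was 0.53, beside 0.71 for all genes. Dtna fell by 2.26 (adjusted p = 3.95e-06), Dmd by 1.18 (adjusted p = 0.00144) and Utrn by 0.80 (adjusted p = 9.1e-05), while Sgce rose by 0.79 (adjusted p = 0.00103). After rescaling, Dmd (-0.49, adjusted p = 0.102) and Utrn (-0.11, adjusted p = 0.521) were not called. In ch+ against ch- 2 were lower, Dmd (-0.92, adjusted p = 0.00686) and Utrn (-0.43, adjusted p = 0.0215), the latter not called after rescaling. Of 13 tested genes that glycosylate dystroglycan for laminin binding, 1 was higher in late, B3galnt2 (1.00, adjusted p = 0.0526), with a median of -0.03. After rescaling 6 of the 13 were higher and the median was 0.66, again beside 60% of all genes and a median of 0.71. As deposited, limma called 0 in ch+ against ch-, with 2 at an unadjusted p under 0.05.

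The genes lie on separate chromosomes for the most part. On GRCm38, Lama4 (ENSMUSG00000019846) spans chr10:38965515-39110188 on the plus strand and Lama2 (ENSMUSG00000019899) chr10:26980036-27619758 on the minus strand. Lama5 (ENSMUSG00000015647) lies at chr2:180176373-180225859 and Lamc3 (ENSMUSG00000026840) at chr2:31887291-31946539, and Lama1 (ENSMUSG00000032796) at chr17:67697259-67822647. Lamb1 (ENSMUSG00000002900) is at chr12:31265234-31329644, Lamb2 (ENSMUSG00000052911) at chr9:108479736-108490530 and Lamc1 (ENSMUSG00000026478) at chr1:153218922-153332786. The chains that rose late, Lama1, Lama4, Lamb1 and Lamc1, thus lie on 4 different chromosomes. Antisense genes overlap exons of Lama2 (Gm48084), Lama3 (Gm29200) and Lamc3 (Gm13441), none of them a deregulated chain of pooled late against ctrl. In other comparisons these chains were called, Lama3 in HL60 late and ML1 ch+ against ctrl, and Lama2 and Lamc3 in HL60 ch+ against ch-. The study's methods call the reads strand-specific, and the part of these overlaps in the calls was not tested.

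Since Lamb1 rose late while Lamb2 and Lama5 fell, the bases upstream of these 3 genes are shown. They are from RefSeq on GRCm38.p6, where 4 of the 9 genes had an entry. Each is printed 5′ to 3′ on the strand of its gene and ends before the first annotated exon. Capitals mark the GC box GGGCGG or its complement CCGCCC, a motif picked after the sequences had been seen. The stretches are chr12:31265043-31265233 (plus) for Lamb1, chr9:108479612-108479735 (plus) for Lamb2 and chr2:180225860-180226109 (minus) for Lama5.
Lamb1: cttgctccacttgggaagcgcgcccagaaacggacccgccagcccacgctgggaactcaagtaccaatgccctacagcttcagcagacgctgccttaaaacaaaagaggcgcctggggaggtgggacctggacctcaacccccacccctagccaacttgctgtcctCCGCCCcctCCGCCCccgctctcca
Lamb2: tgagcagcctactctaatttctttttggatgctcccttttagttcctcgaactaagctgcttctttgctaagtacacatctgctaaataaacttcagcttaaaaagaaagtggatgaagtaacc
Lama5: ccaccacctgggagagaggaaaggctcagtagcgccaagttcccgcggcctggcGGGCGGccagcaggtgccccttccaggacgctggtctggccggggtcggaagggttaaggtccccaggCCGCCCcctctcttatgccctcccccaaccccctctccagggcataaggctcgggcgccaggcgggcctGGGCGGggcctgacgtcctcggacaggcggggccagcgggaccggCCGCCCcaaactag
The 250 bases upstream of the RefSeq start held 2 GC boxes for Lamb1, 0 for Lamb2 and 4 for Lama5, with 62.0%, 43.6% and 72.4% G or C. Among 32851 promoters of that length in the table, 32.7% held a GC box on either strand, and the median was 52.4% G or C. The promoter of Lamb1, which rose, and that of Lama5, which fell, both hold the motif, and that of Lamb2, which fell, does not. Lama2, the remaining chain with an entry, was not called in late and held 0 GC boxes, with 47.2% G or C. Its window, chr10:27616943-27617192, lies inside the GENCODE span of Lama2 and not upstream of it, so it is not a like case. The match is a description of letters and no measure of binding.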

How the data were processed

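RNA was sequenced from 21 libraries of sorted Nes low marrow cells. Per the submitters' processing notes, the authors aligned reads to mm10 with STAR 2.5.1b, counted them with RSEM 1.2.29 and normalized them with DESeq2 1.10.1. The deposited values, from -2.33 to 22.44, are regularized log2 normalized counts; the methods speak of a log10 transformation, which this range does not bear out. The design had assumed log2 of a normalized count plus 1 and was applied to the deposited log2 values directly. A count model could not be used, the read depth of each library is unknown, and strongly regularized weak genes limit precision. Of 26852 Ensembl identifiers 26686 had a symbol, and 0 columns were left without a sample.

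Genes with a mean of at least 3.32 (10 normalized counts) were kept, 12976 in all. In R 4.3.3, limma 3.58.1 fitted them with a trend of variance on mean, as 4 groups (ctrl, early ch-, early ch+, late) and as 7 groups with HL60 and ML1 apart, with two-sided tests, Benjamini-Hochberg adjustment over all genes in each of 16 comparisons and a threshold of 0.1. The method was tested on simulated data. Shares are 2 to the power of the value, divided by the exon length in kb, over the sum of all chain genes of the class in the table, tested or not. Lengths and positions are from GENCODE vM21 (GRCm38), and promoters from RefSeq (GRCm38.p6). Named genes are the 9 chains, Lamb3, up to 4 called genes of each list by size of change, and up to 3 of the genes most like each chain, with some genes that these rules would name not reported here; further genes, such as Nid1 among the partners in late, Eng, Esam, Pdgfra, Spp1, Notch3, Agrn, Col18a1, S100b, Emcn, Vwf, Kdr, Cdh5, Tek, Cdh19 and Lpl, were named after their values were seen. The members and lists were chosen with earlier results of these data known.

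Alternatives tried were no filter, a mean of at least 50 normalized counts, quantile normalization, rescaling to library totals, no trend, a threshold of 0.05, the compared groups alone, 7 groups, the longest transcript or no length for shares, and leaving out each library. Counts of list genes after scaling were added once the values had been seen. Tables and figures were made with Python 3.11.15, pandas 2.3.3 and matplotlib 3.10.9.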

Additional observations from a re-analysis of the deposited data

Results flagged for a closer look

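Among the 27 groups of 6 libraries examined, 2 had a single library far from the other 5, and chance alone gives such a library in about 1 in 20 groups. Lama1 in early ch- was at 4.55 in HL60 528, while the other libraries lay between 5.58 and 6.09, so that the gap made up 0.67 of the range. Lama5 in late was at 6.37 in ML1 582, while the others lay between 7.08 and 7.23, a gap of 0.817 of the range. Without ML1 582 the late call of Lama5 did not change.

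In the planned fit the lines differed for 1 chain. Lama4 was higher in ML1 late than in HL60 late by 0.55 on the log2 scale (limma adjusted p = 0.0329), in 3 of 3 libraries against 3 of 3. This call was lost with no mean-variance trend (adjusted p = 0.154) and without each of 4 libraries (0.109 to 0.185). Lama1, Lama3 and Lamc1 were called under other settings, and Lama2 without HL60 late 397 (-1.01, adjusted p = 0.0271).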

How the results depend on the processing

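No paired analysis was run, because the replicate numbers are not shared between groups. The ch+ and ch- numbers do run in parallel within a line. In HL60 they are 523, 524 and 525 beside 527, 528 and 529, and in ML1 538, 539 and 541 beside 543, 544 and 546. No label says that these are pairs from the same mouse, and a fit blocked by this order was not tried. The limits are few libraries, an unknown depth of each library, regularized weak genes and late libraries with lower totals. In late against ctrl, the calls of Lama1, Lama4, Lamb1 and Lamc1 were made under each alternative. The number of chains called in late against ctrl (6) was 5 to 6 under the alternatives and 6 to 7 without single libraries. For ch+ against ctrl (3) it was 2 to 4 and 2 to 3, for late against ch+ (5) it was 5 to 6 and 5 in each case, for HL60 late (7) 6 to 7 and 5 to 7, and for ML1 late (6) 5 to 7 and 6 to 7. Where no value shows the cause of a change below, the cause was not tested.

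Rescaling to library totals shifted the median change of all genes in late against ctrl by 0.69, from 0.02 to 0.71. In the pooled comparisons it turned the sign of 7 changes: Lama2 (0.45) and Lamc3 (0.15) in late against ctrl, Lamb2 (0.018) in ch+ against ctrl, Lamc1 (-0.005) in ch- against ctrl, and Lama2 (0.27), Lama3 (0.17) and Lama5 (0.42) in late against ch+. By line it turned Lamc3 (0.47) in HL60 late and Lama2 (0.21) and Lama3 (0.79) in ML1 late against ctrl. Quantile normalization turned Lamb2 (-0.004) in ML1 ch+ against ctrl. All genes called went from 2795 to 8323 in late against ctrl, with 47.3% and 93.8% of them higher, from 2555 to 9055 in late against ch+ (44.6% and 93.5% higher), from 1778 to 5539 in HL60 late (47.1% and 93.2%) and from 2851 to 8806 in ML1 late (45.0% and 93.1%). The share higher moved from 55.4% to 66.6% in ch+ against ctrl, from 59.0% to 41.9% in ch- against ctrl and from 57.1% to 78.7% in ch+ against ch-. By line it moved from 53.9% to 70.3% in HL60 ch+, from 60.5% to 32.5% in ML1 ch-, from 57.8% to 74.9% in HL60 and 55.1% to 78.7% in ML1 for ch+ against ch-, and in ML1 against HL60 from 22.8% to 63.0% in late and from 28.6% to 14.3% in ch-.

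Leaving out single libraries turned the sign of changes that were not called. They ranged from -0.004 to 0.27 (Lama2) and -0.135 to 0.009 (Lamb2) in ch+ against ctrl, from -0.32 to 0.18 (Lama5), -0.027 to 0.175 (Lamc1) and -0.026 to 1.28 (Lamc3) in ch- against ctrl, from -0.05 to 0.29 (Lama1) in ch+ against ch-, and from -0.21 to 0.26 (Lamc3) in late against ch+. By line, against ctrl, they ranged from -0.076 to 0.41 (Lama2) and -0.96 to 0.35 (Lamc3) in HL60 late, from -0.024 to 0.22 (Lamc1) in HL60 ch+, from -0.21 to 0.32 (Lama5), -0.15 to 0.22 (Lamb1), -0.14 to 0.062 (Lamc1) and -0.10 to 1.21 (Lamc3) in HL60 ch-, from -0.37 to 0.22 (Lama3) in ML1 late, from -0.051 to 0.092 (Lamb2) and -0.76 to 0.55 (Lamc3) in ML1 ch+ and from -0.46 to 0.033 (Lama5) in ML1 ch-. In ch+ against ch- they ranged from -0.15 to 0.61 (Lama1) in HL60 and from -0.007 to 0.10 (Lama1), -0.062 to 0.26 (Lama2), -0.31 to 0.34 (Lama3) and -0.039 to 0.20 (Lamc1) in ML1. In ML1 against HL60 they ranged from -0.13 to 0.58 (Lama1), -0.14 to 0.056 (Lama4) and -0.17 to 0.12 (Lama5) in ch+ and from -0.032 to 0.74 (Lama1), -0.051 to 0.33 (Lamb2) and -0.27 to 0.50 (Lamc3) in ch-.

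The number of chains called in ch+ against ch- (5) was 2 without a filter, 3 without a trend, 3 at a threshold of 0.05 and 1 to 4 without single libraries. In HL60 ch+ against ctrl (1) it was 2 after rescaling and 1 to 3 without single libraries, and in ML1 ch+ against ctrl (4) 2 without a filter, at 0.05 and with the compared groups alone, and 2 to 3 without single libraries. In HL60 ch+ against ch- (3) it was 1 without a filter and 1 to 4 without single libraries. In ML1 (1) it was 0 in limma without a filter or a trend, 3 after rescaling and 0 to 1 without single libraries. In ML1 against HL60 late (1) it was 2 with the stricter filter, 2 after rescaling, 3 with the compared groups alone and 0 to 2 without single libraries, and without a trend the 1 chain was Lama3 in place of Lama4. For ch- against ctrl of each line (0) it was 0 to 1.

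Leaving out single libraries lowered some counts of all genes, given here with the count from all libraries in brackets. The lowest were 136 (249) in ch- against ctrl, 105 (204) in HL60 ch-, 180 (304) in ML1 ch- and 294 (509) in HL60 ch+ against ch-. Other counts of all genes that moved by over 1.5 times were, at 0.05, 512 of 800 in ch+ and 156 of 249 in ch- against ctrl, 461 of 692 in HL60 ch+, 133 of 204 in HL60 ch- and 178 of 304 in ML1 ch-. Without a filter they were 427, 133 and 178 for the last 3. With the compared groups alone they were 126 in HL60 ch-, 181 in ML1 ch-, 552 beside 868 in ML1 ch+ and 990 beside 531 in ML1 against HL60 late. Without a trend the count was 170 in ML1 ch-. For ML1 against HL60 they lay between 0 and 8 in ch+ (2) and between 0 and 7 in ch- (7), and without single libraries between 0 and 6 and between 0 and 9.

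With the longest transcript the Lama4 share was 63.4% in ctrl, 55.7% and 62.8% in HL60 and ML1 ch-, 75.7% and 69.9% in ch+ and 80.6% and 91.1% in late, and 86.0% in ML1 late without division by length. The Lamb1 share was 28.9% in ctrl, 40.4% in ML1 ch-, 38.4% and 44.0% in ch+ and 67.4% and 75.9% in late with the longest transcript, and 29.4%, 41%, 39.1%, 44.7%, 68.0% and 76.4% without division, and 55.3% in HL60 late after quantile normalization. The Lamc1 share of ML1 ch+ was 98.3% without division.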

Other observations

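The remaining marker lists were counted in late against ctrl, where 10.2% of all genes were higher and 11.4% lower. Of 9 tested Schwann cell genes 1 was higher, Ngfr (3.91, adjusted p = 4.73e-06), a gene that marrow stroma also expresses, and 3 were lower, Mbp (-1.44) and Pmp22 (-0.66, turning to 0.03 after rescaling to library totals) among them, and none of the 3 was called after rescaling. Of 6 tested adipocyte genes 2 were higher, Pparg (1.97, adjusted p = 4.27e-06) and Cebpa (1.39, adjusted p = 0.000792), transcription factors of fat cell formation, and 1 was lower, Plin4 (-1.62, adjusted p = 0.00684). After rescaling Cdh19 (0.71) of the Schwann cell list and Adipoq (0.74) and Lpl (1.06) of the adipocyte list were called higher as well. On that scale 60% of all genes were higher, and the median change of all genes was 0.71. Of 6 tested skeletal muscle genes 2 were lower, Acta1 (-1.65) and Actn3 (-1.34), again not after rescaling. Of 10 tested blood genes 3 were lower (Ngp, Mpo and Lyz2, not after rescaling) and of 9 red cell genes 4, the globin genes Hbb-bs (-2.96), Hba-a1 (-2.39), Hba-a2 (-2.11) and Hbb-bt (-1.89). The epithelial list, which would accompany the Lama3 and Lamb3 products in skin, had 0 of 7 genes above the filter.

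In early ch+ against ch- the Schwann cell genes that were lower included Sox10 (-2.20, adjusted p = 7.08e-05) and Mbp (-1.87, adjusted p = 0.00148), while S100b was higher (1.11, adjusted p = 0.0153). Of the smooth muscle genes, Tagln (-2.26), Myh11 (-2.25), Cnn1 (-2.0) and Acta2 (-1.94) were the lowest. Of 11 osteoblast genes 1 was lower, Spp1, beside 2.68% of all genes, and it was not called after quantile normalization. These changes stand beside the lower Lama5 and Lamc3 of the same libraries, and their part in those was not tested.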
